A study of Homo sapiens with 16 samples.

Results

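The 2 splice acceptors of RELA targeted in this series, those of exon 10 and exon 7, were set side by side by splice position. They were chosen by gene: of the 16 genomic DNA libraries of the series, which cover 4 acceptors in 3 genes, the 8 libraries of the 2 RELA acceptors were taken, with 27 positions each. In CRISPR-SKIP, the G that ends an intron is changed with a cytidine base editor, so that the next exon may be skipped in the mature transcript. All libraries came from HEK-293T, a transformed human embryonic kidney line, harvested 6 days after transfection. The exon 10 base-edited group (2 libraries) received SaCas9-KKH-BE3 and an sgRNA to the exon 10 acceptor, and its control group (2 libraries) received a GFP plasmid. The exon 7 base-edited group (2 libraries) received SpCas9-BE3 and an sgRNA to the exon 7 acceptor, and its own control group (2 libraries) also received a GFP plasmid. The controls therefore lacked both the editor and the sgRNA. The cells are pools of a transfected line, not clones, and a share of reads cannot tell more edited alleles per cell from more transfected cells. Exon, sgRNA and editor changed together between the acceptors, so their parts in any difference cannot be told apart.

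RELA encodes p65, the subunit of the transcription factor NF-κB that carries its transactivation domains. Its N-terminal Rel homology region binds DNA and pairs the protein with other NF-κB subunits, and inhibitors of the IκB family hold it in the cytoplasm until a signal such as an inflammatory cytokine releases it. An intron is removed by the spliceosome through a donor site at its start and an acceptor at its end, where a run of pyrimidines is followed by the dinucleotide AG. A BE3 editor tethers a cytidine deaminase to a Cas9 that nicks a single strand, and it acts on cytidines in the part of the protospacer far from the PAM, the short motif that Cas9 needs beside its target. Both RELA guides bind so that the deaminated cytidine lies on the antisense strand, and the edit is read as G>A on the sense strand.

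The 2 acceptors share the letters around the splice site, which is why their sequences are shown. Each line below gives the last 50 intronic bases and the whole exon on the sense strand, with the last intronic G and the first exonic G in capitals. Exon 10 lies at chr11:65655688-65655762 and exon 7 at chr11:65658718-65658822 (GRCh38, minus strand, gene ENSG00000173039.20), and the windows on show span chr11:65655688-65655812 and chr11:65658718-65658872.
exon 10 acceptor and exon: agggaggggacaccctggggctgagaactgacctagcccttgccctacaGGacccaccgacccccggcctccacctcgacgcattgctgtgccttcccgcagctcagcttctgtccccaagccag
exon 7 acceptor and exon: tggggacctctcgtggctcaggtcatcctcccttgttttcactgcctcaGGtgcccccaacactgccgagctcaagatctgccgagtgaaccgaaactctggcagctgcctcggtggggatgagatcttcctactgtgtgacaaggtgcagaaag

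The guides place the same pair of Gs at different distances from the PAM. They are printed 5′ to 3′ as the antisense strand is read, with the cytidines opposite the exonic and the intronic G in capitals. The exon 10 guide matches chr11:65655757-65655776 and is followed by the 6-base PAM ctaggt, and the exon 7 guide matches chr11:65658821-65658840 and is followed by the 3-base PAM ggg.
exon 10 guide: tgggtCCtgtagggcaaggg
exon 7 guide: aCCtgaggcagtgaaaacaa
Counted from 1 at the end distal to the PAM, the cytidines opposite the exonic and the intronic G are protospacer positions 6 and 7 in the exon 10 guide, and positions 2 and 3 in the exon 7 guide. The intronic target is thus 14 bases from the PAM at exon 10 and 18 bases at exon 7. The base on the 5′ side of the intronic target cytidine is the other target cytidine in both guides. The base on the 5′ side of the exonic target cytidine is t at exon 10 and a at exon 7.

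The exons also differ in their place in the gene and in the protein. Exon 10 is 75 bp long, its upstream intron has 92 bp and its downstream intron 687 bp. Exon 7 is 105 bp long, its upstream intron has 843 bp and its downstream intron 218 bp. Both lengths are multiples of 3, and loss of the exon would remove the length of 25 residues for exon 10 and of 35 residues for exon 7, in frame. In the MANE Select transcript, of 551 codons, exon 10 covers codons 320 to 345 and exon 7 codons 187 to 222, both ends included in part. The exon 10 stretch lies beyond the Rel homology region and before the transactivation domains, whereas the exon 7 stretch lies within the Rel homology region. In each exon the first G is the second base of a codon that is split by the intron. The acceptor of exon 10 is used by 8 of the 26 annotated RELA transcripts and that of exon 7 by 15, and 0 annotated transcripts join the neighbouring exons across either one. Of the last 20 intronic bases, 13 are pyrimidines at exon 10 and 15 at exon 7.

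Depth was similar at the 2 acceptors, between 20623 and 29013 reads over all library positions. Base counts of the duplicate transfections were further apart in every group than read sampling alone gives (chi-square test), so both were kept as separate libraries. Exon 10 base-edited library a stood apart: its share of non-reference reads was higher than that of library b at 25 of the 25 positions other than the 2 targeted Gs, with medians of 0.875% and 0.345%. The medians of the exon 10 control libraries were 0.401% and 0.286%. At exon 7 the medians were 0.351% and 0.414% in the base-edited libraries and 0.255% and 0.324% in the controls. No molecular identifiers were used, so the 95% intervals cover counting error only.

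The last intronic G was converted at both acceptors, and several times more often at exon 10. Of the reads at this G in exon 10, G>A made up 47.1% (95% Wilson interval, 46.4 to 47.7) and 46.1% (45.5 to 46.8) in base-edited libraries a and b, against 0.264% and 0.189% in the control libraries. In exon 7, G>A made up 6.87% (6.57 to 7.19) and 5.65% (5.37 to 5.94) in the base-edited libraries, against 0.0862% and 0.135% in the control libraries. The base-edited and control libraries overlapped at neither acceptor, and the exon 10 base-edited libraries lay above both exon 7 ones by many times the gap within either pair. With the control subtracted, the modification rate was 46.4 percentage points at exon 10 and 6.15 percentage points at exon 7, a ratio of 7.54. The difference between these was 40.2 percentage points (SE between duplicates 0.770, 95% interval on pooled reads 39.7 to 40.7).

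The size of that difference was steadier than its test. The odds of G>A in the base-edited libraries were 377 times those in the controls at exon 10 and 60.4 times at exon 7, a ratio of 6.24. In a quasi-binomial model of the 8 libraries, the interaction of acceptor and treatment had p = 0.0359. The exact permutation test of the 4 base-edited libraries gave p = 0.333, the smallest that its 6 arrangements allow. Leaving out any of the 8 libraries kept the difference between 39.6 and 40.8 percentage points, but the model's p was over 0.05 without either exon 10 base-edited library (0.0672 without a and 0.0646 without b), either exon 10 control library (0.0727 without a and 0.0888 without b) or either exon 7 control library (0.0910 without a and 0.199 without b).

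The first exonic G separated the acceptors much further. In exon 10, G>A made up 49.0% (48.4 to 49.6) and 48.9% (48.3 to 49.5) of reads in the base-edited libraries, against 0.171% and 0.136% in the control libraries. In exon 7, it made up 0.668% (0.576 to 0.775) and 0.634% (0.545 to 0.739) in the base-edited libraries, against 0.117% and 0.131% in the control libraries. The exonic G of exon 7 was thus converted in both base-edited libraries, at a level far closer to its control than to exon 10. The control-subtracted rates were 48.8 percentage points at exon 10 and 0.527 percentage points at exon 7, a ratio of 92.6. The difference was 48.3 percentage points (SE between duplicates 0.0569, 95% interval on pooled reads 47.8 to 48.7). On the odds scale the ratio between acceptors was 117, and this interaction had p = 2.6e-05 in the quasi-binomial model. The exact permutation test again could not go below 0.333. The model's call held without any single library, with the difference between 48.2 and 48.3 percentage points.

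**Figure D1:**
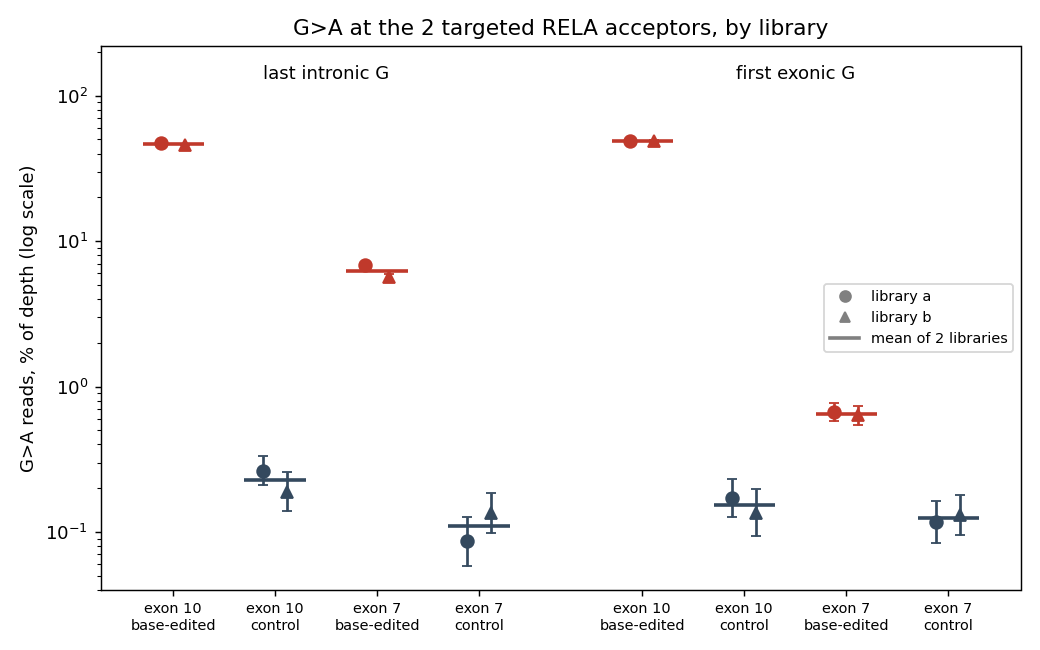
Share of reads with G>A (% of depth, log axis) at the last intronic G and the first exonic G for exon 10 and exon 7, by library, with 95% Wilson intervals and a bar at the mean of the 2 libraries. The exon 10 base-edited libraries sit between 46.1% and 49.0% at both Gs, whereas the exon 7 base-edited libraries sit at 6.87% and 5.65% at the intronic G and at 0.668% and 0.634% at the exonic G, with no control above 0.264%.

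Within a library, the 2 neighbouring Gs can be compared with the transfection held the same. Of the G>A reads counted at either G, the exonic G held 51.0% and 51.4% in the exon 10 base-edited libraries, and 8.87% and 10.1% in the exon 7 base-edited libraries. The mean share was 51.2% ± 0.325 at exon 10 and 9.48% ± 0.871 at exon 7 (SD, n = 2 each). The shares differed by 41.7 percentage points, with p = 0.000476 in the quasi-binomial model, and by 41.96 percentage points (p = 0.0158) without exon 10 base-edited library a. In exon 10 the exonic G>A share exceeded the intronic one by 1.92 and 2.76 percentage points in libraries a and b, whereas in exon 7 it was lower, by -6.20 and -5.01 percentage points. The order of the Gs was therefore opposite at the 2 acceptors in both libraries of each. In the controls, with 59 to 112 such reads per library, the share ranged from 39.3% to 57.6%.

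The counts are given per position and do not say which changes lay on the same read, but the shares limit it. In exon 7, at least 88.2% and 87.0% of the intronic G>A reads of libraries a and b had an intact exonic G, because the reads changed at the exonic G were too few to pair with more of them. In exon 10 the same bound is 0%, and in library a the non-G shares of the 2 Gs, 49.0% and 53.0%, sum to more than all reads, so that some reads were changed at both. The study, which had the reads, reports that few reads of this target were changed at either base alone. Reads with both Gs intact made up at most 47.0% and 48.1% in exon 10, and between 91.5% and 92.3% in library a and between 93.0% and 93.7% in library b of exon 7. These limits take no account of reads without a base call at a G and are approximate for that reason. At the exonic G of exon 7 such reads were 0.116% and 0.0541% of the highest depth of base-edited libraries a and b.

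Because both acceptors continue with a G, the letters left after editing are alike for a single edit and differ for a double one. With the intronic G>A alone, the next AG in the sequence ends at exonic base 1 at both acceptors, a shift of 1 base that is not a multiple of 3. With the exonic G>A alone, the AG of the acceptor is kept. With both edits, the next AG ends at exonic base 52 in exon 10 and at exonic base 20 in exon 7, neither of which is a multiple of 3. These are matches of letters, and use of such an AG by the spliceosome was not measured in these libraries.

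The bases that replaced G were mostly A at both acceptors. At the intronic G, A made up 96.2% and 97.2% of the non-G reads in the exon 10 base-edited libraries and 89.3% and 89.6% in the exon 7 base-edited libraries. The remainder differed in make-up. In exon 10, C made up 1.71% and 1.099% of the non-G reads and T 2.12% and 1.67%. In exon 7, C made up 7.49% and 6.63% and T 3.17% and 3.74%, so that C was the more frequent of the 2 in exon 7 and the less frequent in exon 10. The G>A share of non-G reads differed by 7.21 percentage points, with p = 0.0327 in the quasi-binomial model. After subtraction of the control bases the quasi-binomial model gave 5.65 percentage points with p = 0.0533, and the call was also lost without either exon 7 base-edited library (p = 0.229 without a, p = 0.205 without b).

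At the exonic G the A share was again higher in exon 10, but it was not separated by the test. A made up 92.4% and 94.1% of the non-G reads in the exon 10 base-edited libraries, and 82.4% and 86.3% in those of exon 7, where there were only 210 and 190 non-G reads. The difference was 8.93 percentage points, with p = 0.257 in the quasi-binomial model, and 9.78 percentage points (p = 0.0988) without exon 10 base-edited library a. As a share of all reads, however, C at the exonic G reached 2.61% and 2.00% in exon 10, against 0.0888% and 0.0541% in exon 7. In their controls C did not exceed 0.0467% at exon 10 and 0.0621% at exon 7, so that the exon 7 values overlapped their controls in part.

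**Figure D2:**
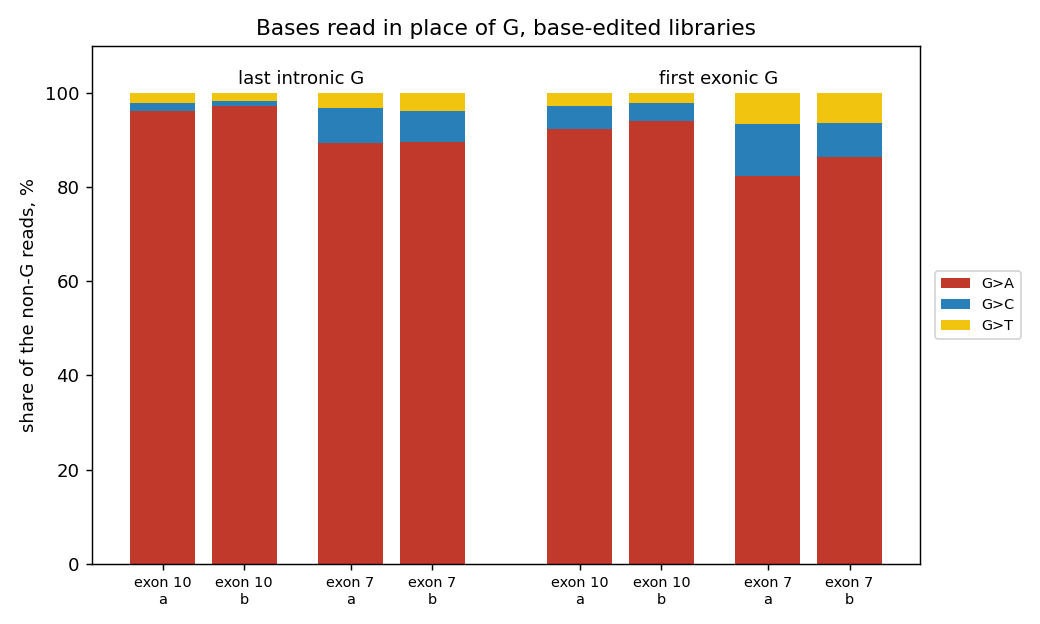
Bases read in place of G in the base-edited libraries, as stacked shares of the non-G reads (%), at the last intronic G and the first exonic G of exon 10 and exon 7, libraries a and b. The G>A part is 96.2% and 97.2% at the intronic G of exon 10 and 89.3% and 89.6% at that of exon 7, where the G>C part is the larger remainder.

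The other sense-strand Gs lie further from the splice site, and none came near the targeted pair of exon 10 or the intronic G of exon 7. Exon 10 has a G at -9, opposite protospacer position 15, and another at -15, within the PAM. Exon 7 has a G at -7 (protospacer position 9), at -16 (position 18) and at 3, 1 base beyond the protospacer. At -9 of exon 10, G>A made up 0.558% and 0.353% of reads in the base-edited libraries, against 0.179% and 0.136% in the controls. At -7 of exon 7, it made up 0.363% and 0.414%, against 0.131% and 0.141% in the controls. The groups overlapped at neither of these Gs, and the mean was 2.896 times the control at exon 10 and 2.853 times at exon 7. Base-edited library a of exon 10, the library with the raised background, was the higher of the pair, and without it the difference at -9 was 0.195 percentage points.

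At -16 of exon 7, G>A made up 0.208% and 0.193% in the base-edited libraries and 0.0896% and 0.103% in the controls, without overlap. At the 2 Gs outside the protospacers the groups overlapped: -15 of exon 10 had 0.603% and 0.128% against 0.241% and 0.160%, and position 3 of exon 7 had 0.151% and 0.209% against 0.197% and 0.179%. Lack of overlap was not confined to Gs, though many other positions did overlap. In exon 7 both base-edited libraries also lay above both controls in T>C reads at -17 and -8, in C>T reads at -20 and 4, and in A>G reads at -2. In exon 10 they did so in C>T reads at -18 and 5 and in T>C reads at -10. Of these, -20 and 4 of exon 7 and -18 of exon 10 lie outside the protospacer. With duplicates, lack of overlap alone therefore does not mark an edit. Summed over the Gs of a window, the targeted pair held 48.5% (intronic) and 51.0% (exonic) of the control-subtracted G>A at exon 10. At exon 7 the intronic G held 87.5%, the exonic G 7.50%, the G at -7 held 3.59% and the G at -16 held 1.48%.

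**Figure D3:**
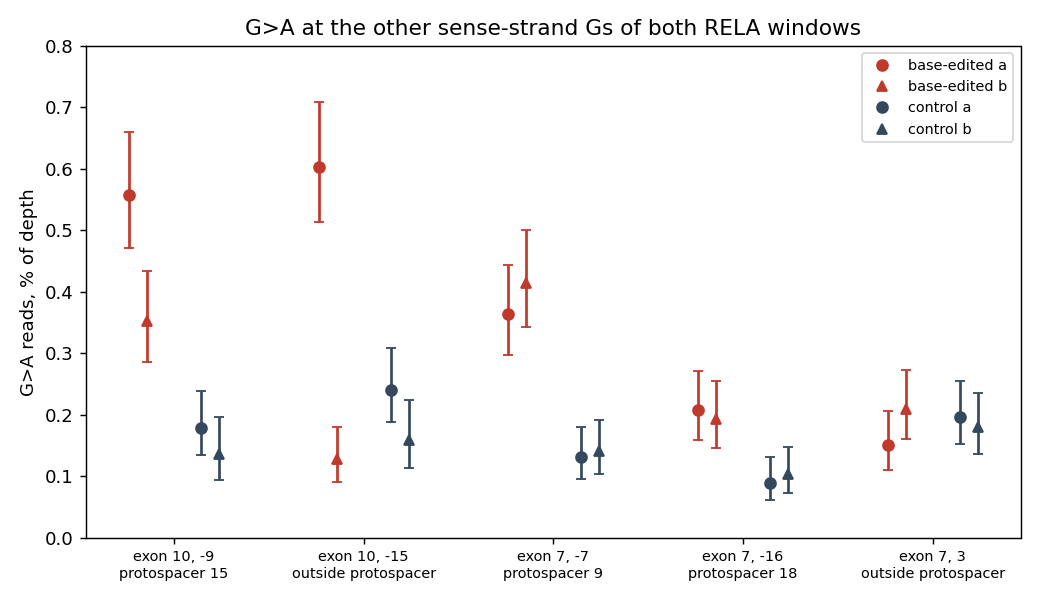
Share of reads with G>A (% of depth, linear axis) at the sense-strand Gs other than the targeted pair, by library, with 95% Wilson intervals and base-edited points left of control points. The base-edited libraries lie above both controls at -9 of exon 10 and at -7 and -16 of exon 7, all inside a protospacer, and no point exceeds 0.603%. Such separation also occurred at some bases other than G, which are not shown.

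Aligned by distance from the splice site, the windows share 26 positions. The change in non-reference reads differed between the acceptors at 2 of these, the intronic and the exonic G (edgeR's quasi-likelihood test, adjusted p = 2.19e-04 and 1.06e-15), or 7.69% of the positions tested. The change was larger at exon 10 at both. Within the windows, 2 of 27 positions changed at exon 10 (7.41%, the targeted pair) and 3 of 27 at exon 7 (11.1%, the targeted pair and the G at -7). DESeq2 also called 2, 2 and 3 positions. With only G>A, A>G, C>T and T>C reads counted as changed, edgeR called 2, 2 and 4, the addition being the G at -16 of exon 7. At -9 of exon 10 the non-reference share was 1.18% and 0.465% in the base-edited libraries, against 0.401% and 0.266% in the controls, and was not called (edgeR, adjusted p = 0.800). At -7 of exon 7 it was 0.580% and 0.569%, against 0.217% and 0.324%, and was called (edgeR, adjusted p = 0.0182), but not without control library a, which left 2 calls.

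The count in the exon 10 window was 2 with any of its 4 libraries left out, and the count between the acceptors was 2 in 7 of the 8 fits that left out a library, including the fit without exon 10 base-edited library a. Without exon 10 base-edited library b, which leaves the raised library a alone, 9 positions differed between the acceptors. Without exon 7 base-edited library a the exon 7 window had 8 calls, and without exon 7 control library b it had 7, each including the 3 named here. At the positions other than the targeted pair, the median difference from the control was 0.209 percentage points at exon 10 and 0.0406 at exon 7, and it was above 0 at 25 and 23 of the 25 positions. Without exon 10 base-edited library a the median at exon 10 was -0.0460 percentage points, with 6 of the 25 positions above 0.

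**Figure D4:**
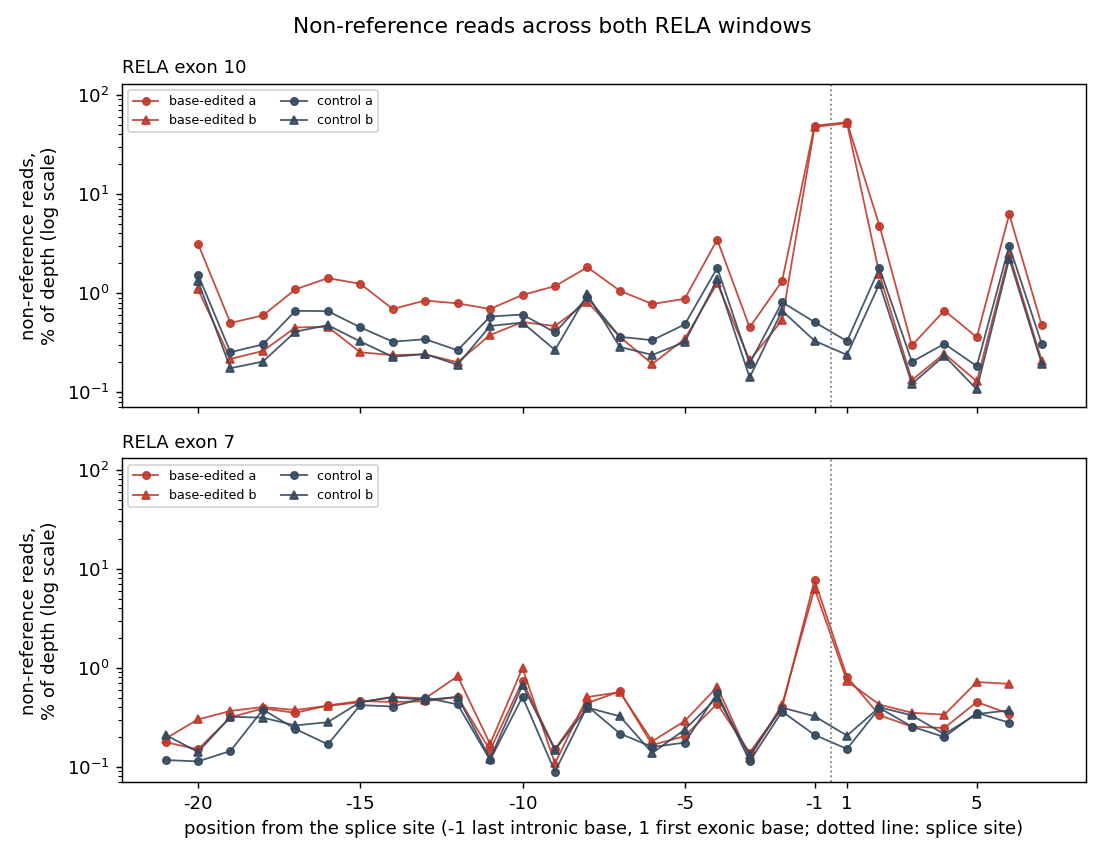
Non-reference reads (% of depth, log axis) by position from the splice site in exon 10 (upper panel) and exon 7 (lower panel), a line per library. Both base-edited lines of exon 10 reach about the same height at -1 and 1 (47.5% to 53.0%), those of exon 7 have a single high point at -1 (7.69% and 6.30%) with 0.811% and 0.735% at 1, and base-edited library a of exon 10 runs above the other 3 lines along the window.

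Depth fell slightly across the windows in the base-edited libraries. Counted from the highest depth of the library, 0.316% and 0.160% of reads were missing at the intronic G in the exon 10 base-edited libraries, against 0.0233% and 0.0242% in the controls. At the intronic G of exon 7, 0.170% and 0.0928% were missing in the base-edited libraries, against 0.0620% and 0.0276% in the controls. The groups overlapped at neither acceptor. This was not particular to the targeted G, since they were also apart at most other positions of both windows. At -9 of exon 10, 0.170% and 0.0681% were missing in the base-edited libraries, against 0.00778% and 0.0145% in the controls. At -7 of exon 7 the values were 0.170% and 0.112%, against 0.0448% and 0.0207%. At the exonic G of exon 7 the groups overlapped. The control-subtracted values at the intronic G were 0.214 percentage points at exon 10 and 0.0864 at exon 7, a difference of 0.128. The interaction, tested on the odds scale in the quasi-binomial model, had p = 0.237. Without exon 10 base-edited library a the difference was 0.05001 percentage points.

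The place of the lowest depth differed. In both exon 10 base-edited libraries it was the exonic G, with 0.395% and 0.192% missing, and in both exon 10 controls it was position 5. In exon 7 it was -4 in base-edited library a, with 0.204% missing, and -8 and -7 alike in base-edited library b, with 0.112% missing. These positions lie inside the protospacer and away from the targeted pair. What the missing reads held was not tested.

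**Figure D5:**
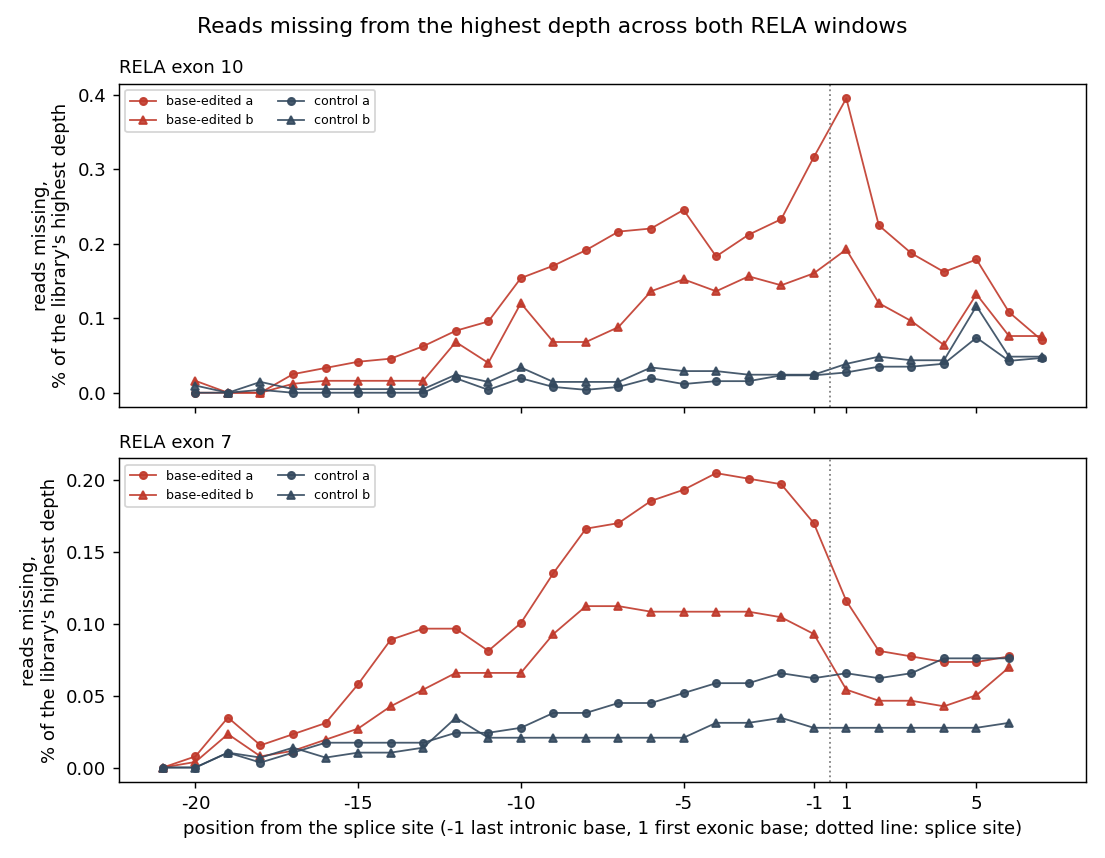
Reads missing from the library's highest depth (%) by position from the splice site in exon 10 (upper panel) and exon 7 (lower panel, with a shorter axis), a line per library. Both base-edited libraries of exon 10 peak at position 1 (0.395% and 0.192%). Those of exon 7 have their highest values at -4 in library a (0.204%) and at -8 and -7 alike in library b (0.112%).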

How the data were processed

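Target regions were amplified by PCR from genomic DNA of duplicate transfections and sequenced on a MiSeq. Alignment used Bowtie2 2.3.3.1, SAMtools 1.6 and GRCh38 according to the submitters' processing notes (options: not given in the sources used here). The deposited values used were whole-number counts of A, C, G and T reads and depth per position, made by the authors. The deposited sheets also hold other cells (titles, guides, percentages and the authors' means), which were not used as values. Count blocks name a group, not a sample, so the letters a and b carry no link to a replicate number, and 0 blocks were left without a group. All 108 depth cells of each sheet equalled their base sums. Antisense counts were complemented.

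A rate is a read count over the depth at the position, and group values are means over duplicates. Acceptors were compared by the interaction in a quasi-binomial model (F test, 4 residual degrees of freedom, dispersion held at 1 or above), with a Wald interval on pooled reads. All quasi-binomial tests work on the odds scale. The differences and their intervals are in percentage points, so a p-value beside a difference does not test that difference itself. Shares within base-edited libraries had 2 residual degrees of freedom. Positions were scanned with edgeR 4.0.16 (R 4.3.3) on reference and non-reference counts, a term per library, Benjamini-Hochberg adjustment, at least 100 reads, and a call at an adjusted p under 0.05. DESeq2 1.42.0 was an alternative, as were other denominators, readouts and backgrounds, and leaving out each library. The models were also run on simulated data. The simulated spread came from the controls for the scan and was a fixed value for the quasi-binomial model. The wider spread of the exon 10 base-edited pair was not simulated, and no result here rests on those runs. The methods of the study give no test between exons.

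Positions named by rule are the targeted pair, every sense-strand G and any called position whose change reached 0.5 percentage points. The exon 7 call at -7 is named as a G. The positions whose depth was lowest, and the bases other than G listed for lack of overlap, were named after their values were seen. Members, tests and lists were chosen with earlier results of these data known. Annotation and sequences are from GENCODE release 44 and the GRCh38 genome, where each guide and window matched 1 time on chromosome 11.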

Additional observations from a re-analysis of the deposited data

Results flagged for a closer look

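With all libraries in the fit, the change in the odds of G>A differed between exon 10 and exon 7 at both targeted Gs. The interaction of acceptor and treatment in the quasi-binomial model had p = 0.0359 at the last intronic G, where the control-subtracted rates were 46.4 percentage points at exon 10 and 6.15 at exon 7. At the first exonic G the quasi-binomial model gave p = 2.6e-05, with 48.8 percentage points at exon 10 and 0.527 at exon 7. Both base-edited libraries of exon 10 were higher than both of exon 7 at each G. The call at the intronic G was lost in most fits that left out a library, whereas the call at the exonic G was kept. The exact permutation test could not go below p = 0.333 at either G.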

How the results depend on the processing

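Of 82 alternative values over 9 results, 70 kept their direction and their side of the threshold or, for a count of positions, stayed close to it, and 0 changed direction. Some of these could not differ from the fit reported above. The 70 and the counts per result below therefore overstate how far the results were tested. The minimum of 100 reads removed no position, as the lowest depth was 20623. Pooling the duplicates left the p-value of the quasi-binomial model unchanged at both targeted Gs. The estimated dispersion changed the p-value only at the first exonic G. The difference at the intronic G was 39.6 to 40.8 percentage points with a library left out, with p over 0.05 in 6 of the 8 cases. Other denominators, all non-G reads, no subtraction, pooled reads and the estimated dispersion gave 40.1 to 41.1 percentage points. For the exonic G all 14 alternatives kept the call, with 48.1 to 51.6 percentage points. The share of the pair at the exonic G kept its call in 7 of 7 alternatives. The difference in the G>A share of changed reads at the intronic G was 5.65 percentage points (quasi-binomial model, p = 0.0533) with the control subtracted, and 6.68 to 7.75 with a library left out. With a library left out, the positions that differed between acceptors numbered 2 to 9, and those changed in the exon 7 window 2 to 8. No paired analysis was possible because the count blocks carry no replicate numbers. With a library left out, the lone library of a group is assumed to vary like the others. Duplicates limit every test here, and the intervals on reads do not hold the spread between transfections.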
